A study of Mus musculus with 6 samples.

Results

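The 10 genes described here encode proteins that store, move, recycle and sense iron in macrophages: Fth1, Ftl1, Ncoa4, Tfrc, Slc11a1, Slc11a2, Slc40a1, Lcn2, Hmox1 and Ireb2. They were chosen by name from 55401 genes counted, each symbol matched 1 Ensembl identifier, and all 10 were among the 14269 genes with enough counts to be tested. They were measured by RNA-seq of poly(A)-selected RNA in RAW264.7, an established macrophage-like line of mouse, transformed by Abelson murine leukaemia virus. By their titles, 3 libraries came from cells given Nop16 siRNA and 3 from cells given control siRNA. All 6 libraries carry wild-type genotype and the treatment tag "no". The protocol text, the same for every library, describes transfection with Nop16 siRNA at 20 nM for 3 days with Lipofectamine RNAiMAX. The sources used here do not say how control siRNA was delivered, so a response to transfection cannot be told apart from one to loss of Nop16. Separate cultures are named in no label, and the spread behind every p-value is therefore that between these libraries, which may be technical.

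Macrophages take up iron bound to transferrin and haem from engulfed red cells, keep it inside ferritin, a shell built from heavy and light chains, and return it to the blood through ferroportin. Much of this is set after transcription. Iron regulatory proteins bind a hairpin, the iron-responsive element (IRE), in certain mRNAs when iron is scarce. Binding in a 5′ UTR blocks translation, as in ferritin mRNA, and binding in the 3′ UTR of the transferrin receptor mRNA protects it from decay. RNA counts therefore show only part of the control of these genes.

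The hairpins of canonical form among the 10 genes are shown because iron regulatory proteins bind them. A search of GENCODE M21 transcripts (GRCm38) for a bulged C, 5 bases, the loop CAGTGN with any base but G at the end, and 5 bases paired to the first 5 found them in 4 of the 10 genes. Each is printed 5′ to 3′ over 30 bases as DNA letters, with the bulged C and the loop in capitals. The 3 genes with a match in the 5′ UTR were Fth1 (chr19:9982731-9982760, plus strand), Ftl1 (chr7:45459779-45459808, minus strand) and Slc40a1 (chr1:45925465-45925494, minus strand).
Fth1: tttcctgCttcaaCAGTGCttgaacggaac
Ftl1: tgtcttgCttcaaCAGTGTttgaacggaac
Slc40a1: ccaacttCagctaCAGTGTtagctaagttt
Tfrc had 4 matches in its 3′ UTR, all on the plus strand, at chr16:32631218-32631247, chr16:32631597-32631626, chr16:32631662-32631691 and chr16:32631709-32631738.
Tfrc 1: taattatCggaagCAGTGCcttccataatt
Tfrc 2: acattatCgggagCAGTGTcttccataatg
Tfrc 3: tctatatCggagaCAGTGAtctccatatgt
Tfrc 4: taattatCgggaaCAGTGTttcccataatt
Of 21866 protein-coding genes searched, 23 (0.105%) had a match in a 5′ UTR and 100 (0.457%) in a 3′ UTR. G with T counted as a pair in this search, which finds no hairpin of another form, also in genes with a match. A gene without a match lacks only these letters in its annotated UTRs. Slc11a2 is such a gene, although some of its transcripts are known to carry an IRE of another form in the 3′ UTR, and the gene counts do not separate those transcripts.

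Total counts were 15601477 to 18635089 in the Nop16 siRNA libraries and 19778237 to 23061922 in the control libraries, so every Nop16 siRNA library was the shallower. Nop16 itself, the targeted gene, had 3.94 to 4.56 CPM after Nop16 siRNA and 17.7 to 20.2 CPM in controls, or 22.4% of control (95% interval 19 to 26.5%; edgeR adjusted p = 2.94e-23). CPM are counts scaled to a common library size after TMM adjustment, and 3 counts, taken as the floor, lie at 0.129 to 0.194 CPM. Macrophage markers were present, summing to 7905 to 8307 CPM after Nop16 siRNA and 5315 to 5604 CPM in controls. Of the 10, 5 were higher and 2, Ptprc and Fcgr1, lower, beside 23% and 22.4% of all genes tested. Much of the difference in the sum came from Lyz2, lysozyme, at 2934 ± 185 CPM after Nop16 siRNA and 1144 ± 153 CPM in controls (SD, n = 3 each). Without it the other 9 summed to 5146 to 5260.2 CPM after Nop16 siRNA and 4274 to 4327 CPM in controls, and Adgre1, Spi1 and Tyrobp did not pass. B lymphoid markers summed to 6.79 to 8.31 CPM after Nop16 siRNA and 13.4 to 14.4 CPM in controls, with the 1 tested lower and Pax5 at 0. The part of either list in the results was not tested. Of 9 erythroid markers matched, none was tested, 5 were at 0 in every library, and their sum stayed at or below 0.597 CPM. Fewer cells of a kind and less RNA per cell cannot be told apart in such bulk samples.

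All 10 iron genes passed the threshold of 0.05 on the edgeR adjusted p, 6 as higher and 4 as lower after Nop16 siRNA. The same test called 45.4% of all genes tested, 23% as higher and 22.4% as lower. The 10 genes and the wider list below were chosen with earlier results of these data known. Their counts are therefore no test against these shares. The median absolute log2 fold change was 0.234 over the 10 genes and 0.206 over all genes tested. In a test for more than a 1.2-fold change, 4 of the 10 passed, with Fth1, Slc11a2 and Hmox1 higher and Lcn2 lower, beside 16.5% of all genes. Libraries of the groups did not overlap for 8 of the 10 genes, and for 52.5% of all genes tested.

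**Figure D1:**
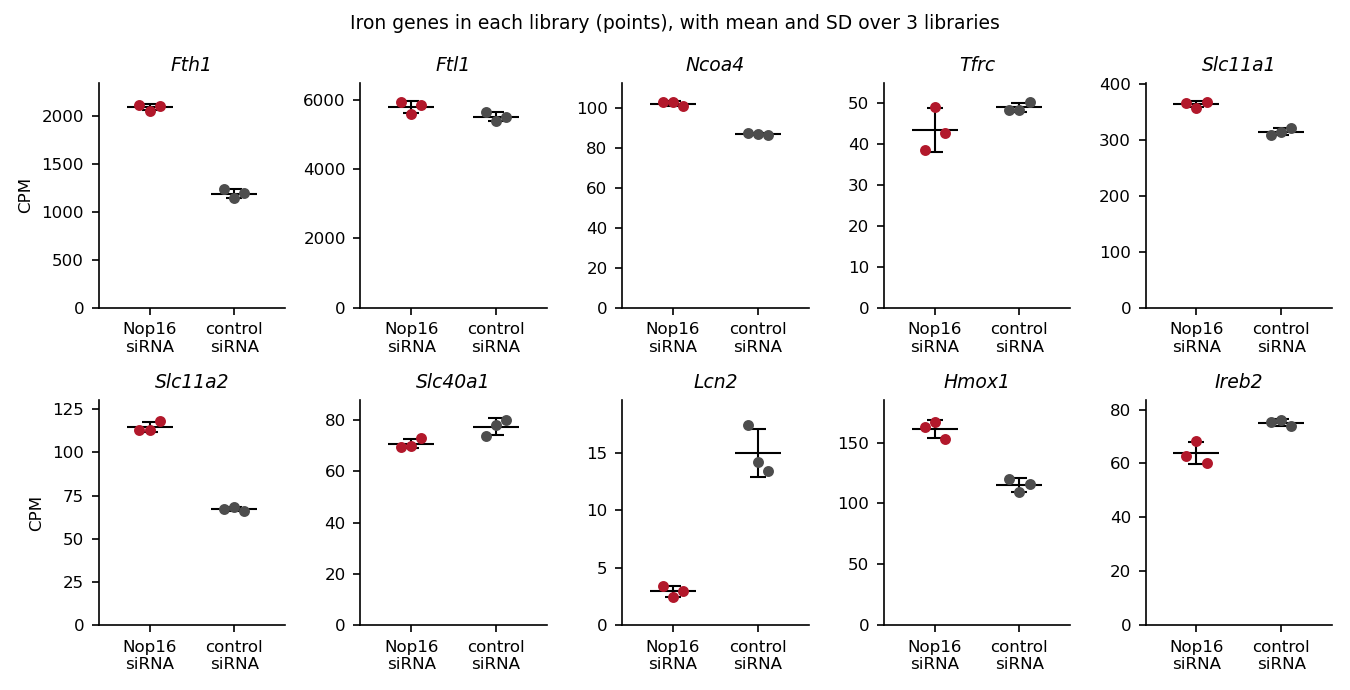
CPM of each of the 10 iron genes in each library (points), with mean and SD over 3 Nop16 siRNA and 3 control siRNA libraries, each vertical axis starting at 0. The groups overlap for Ftl1 and Tfrc and are apart for the other genes.

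Storage genes shifted toward the heavy chain of ferritin. Fth1, which encodes the heavy chain that oxidises iron as it enters the shell, stood at 2111, 2054 and 2099 CPM after Nop16 siRNA, against 1234, 1141 and 1193 CPM in controls. The groups lay far apart and each was tight. Fth1 rose 1.76-fold (95% interval 1.69 to 1.82), with a log2 fold change of 0.81 (SE 0.0277) and an edgeR adjusted p of 1.63e-33. Ftl1, the light chain gene, which helps lay down the mineral core, stood at 5936, 5581 and 5849 CPM after Nop16 siRNA and at 5638, 5399.9 and 5501 CPM in controls. Its groups overlapped, with the lowest Nop16 siRNA library below the highest control. Its rise was 1.05-fold (95% interval 1.01 to 1.09; log2 fold change 0.07, edgeR adjusted p = 0.0226). That call was lost without Nop16 siRNA replicate 1 (edgeR adjusted p = 0.116) or 3 (0.11), without control replicate 2 (0.169) or 3 (0.0762), and with scaling by library size only (0.123).

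Within each library, there were 35.6, 36.8 and 35.9 Fth1 counts for every 100 Ftl1 counts after Nop16 siRNA and 21.9, 21.1 and 21.7 in controls. This ratio needs no scaling between libraries, and the groups were well separated. It averaged 36.1 ± 0.64 after Nop16 siRNA and 21.6 ± 0.399 in controls (SD, n = 3 each), a 1.67-fold difference with an exact two-sided permutation p of 0.1, the smallest that 3 against 3 libraries allow. Together the chains took 0.781% ± 0.0203 of all counts after Nop16 siRNA and 0.675% ± 0.0162 in controls, again without overlap (exact permutation p = 0.1).

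**Figure D2:**
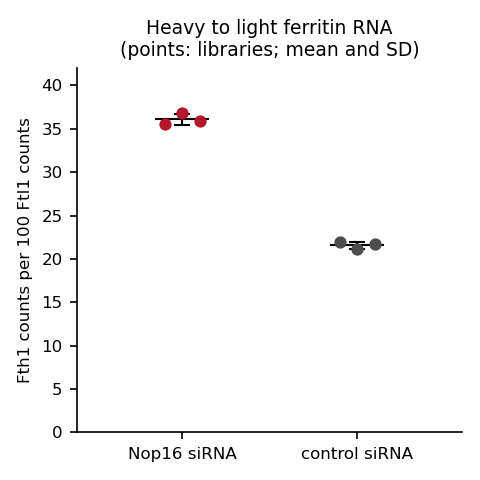
Fth1 counts per 100 Ftl1 counts in each library (points), with mean and SD over 3 libraries a group. The 3 Nop16 siRNA libraries sit between 35.6 and 36.8 and the 3 control libraries between 21.1 and 21.9.

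Ferritin genes have near-identical pseudogenes, and fragments that map to several places were counted for each. Pseudogene models nonetheless held few counts. Ftl1-ps1 had 1% of the Ftl1 counts, Ftl2-ps 0.443% and Ftl1-ps2 0.0191%, while Fth-ps2 and Fth-ps3 had 0.00922% and 0.00217% of the Fth1 counts. Ftl1-ps1 (log2 fold change 0.22, edgeR adjusted p = 0.000256) and Ftl2-ps (0.25, edgeR adjusted p = 0.00593) were called higher, and Ftl1-ps2 did not pass. Adding each parent's pseudogene counts left the log2 fold changes at 0.81 for Fth1 and 0.07 for Ftl1. Sums with so few added counts could hardly differ, so they do not show whether parent counts include pseudogene fragments. A small RNA model, Gm22133, covers 8.13% of the counted length of Ftl1 on the same strand, and fragments there were counted for both. It held 35864 to 41173 counts after Nop16 siRNA and 42563 to 48718 in controls, equal to 38 to 39% of the Ftl1 counts after Nop16 siRNA and 38.8 to 38.9% in controls.

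Ncoa4, the receptor that carries ferritin to the lysosome so that its iron is released, stood at 103, 103 and 101 CPM after Nop16 siRNA and at 87.8, 87.2 and 86.8 CPM in controls. The libraries of each group were nearly identical. It rose 1.17-fold (log2 fold change 0.23, SE 0.0423, edgeR adjusted p = 6.94e-06), a small change.

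Import genes did not move together. Tfrc encodes the transferrin receptor, the main entry of plasma iron. It stood at 38.5, 49.1 and 42.6 CPM after Nop16 siRNA, against 48.3, 48.2 and 50.2 CPM in controls. Nop16 siRNA replicate 2 lay within the control range and the other 2 below it. The fall was to 88.9% of control (95% interval 81.4 to 97.1%; log2 fold change -0.17, edgeR adjusted p = 0.0247), and 1 library moved it by more than 1.5 times. It was -0.09 without Nop16 siRNA replicate 1 (edgeR adjusted p = 0.253) and -0.27 without replicate 2 (edgeR adjusted p = 0.000565). The call was also lost in DESeq2 (adjusted p = 0.0975), without Nop16 siRNA replicate 3 (edgeR adjusted p = 0.0878) and without control replicate 3 (0.0953).

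Slc11a2, which encodes DMT1, the proton-coupled transporter that moves ferrous iron out of endosomes, behaved otherwise. It stood at 113, 113 and 118 CPM after Nop16 siRNA and at 67.4, 68.1 and 66 CPM in controls. Every Nop16 siRNA library was far above every control library. Slc11a2 rose 1.71-fold (95% interval 1.6 to 1.81), with a log2 fold change of 0.77 (SE 0.0438) and an edgeR adjusted p of 6.65e-23. Its paralog Slc11a1 encodes NRAMP1, the metal transporter of the phagosome, known in mice for its part in resistance to intracellular pathogens. Slc11a1 stood at 365, 357 and 367 CPM after Nop16 siRNA and at 308, 314 and 321 CPM in controls. It rose 1.15-fold without overlap (log2 fold change 0.21, edgeR adjusted p = 4.29e-08), less than its paralog and with intervals that do not meet (1.11 to 1.2 for Slc11a1).

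Slc40a1 encodes ferroportin, the only known cellular iron exporter of mammals. It stood at 69.7, 69.8 and 72.9 CPM after Nop16 siRNA and at 73.7, 78.2 and 80.2 CPM in controls. The groups were apart by less than 1 CPM at their nearest libraries. Its level after Nop16 siRNA was 91.6% of control (95% interval 85.7 to 97.9%; log2 fold change -0.13, edgeR adjusted p = 0.0259). The call was lost in DESeq2 (adjusted p = 0.0806), without Nop16 siRNA replicate 1 (edgeR adjusted p = 0.0704) or 2 (0.0787), and without control replicate 2 (0.0784) or 3 (0.132).

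The largest change was that of Lcn2, which encodes lipocalin 2, a secreted protein that binds bacterial siderophores and so withholds iron from microbes. Lcn2 had 52, 42 and 55 counts after Nop16 siRNA, against 381, 331 and 267 in controls, or 3.36, 2.42 and 2.99 CPM against 17.4, 14.2 and 13.4 CPM. All Nop16 siRNA libraries were low and still well above the floor of 3 counts. Lcn2 fell to 19.4% of control (95% interval 15.9 to 23.7%), with a log2 fold change of -2.37 (SE 0.145) and an edgeR adjusted p of 1.83e-21. By fold change it was the 8th largest fall of the 14269 genes tested. Libraries left out one at a time moved it only between -2.47 and -2.25. Neutrophils carry much lipocalin 2. In these libraries, 8 neutrophil markers summed to 0.633 to 1.42 CPM after Nop16 siRNA and 1.05 to 1.81 CPM in controls. S100a9, Ngp and Ltf were at 0 in every library, and S100a8, the only 1 tested, did not pass. A link of these markers to the fall of Lcn2 was not tested. Slc22a17, a reported receptor of lipocalin 2, did not pass (28.6 ± 1.72 CPM after Nop16 siRNA and 26.3 ± 0.684 CPM in controls, SD, n = 3 each), and Bdh2, linked to making a mammalian siderophore, was too low to test.

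Hmox1 encodes haem oxygenase 1, which opens haem and frees its iron. It stood at 163, 167 and 153 CPM after Nop16 siRNA and at 120, 109 and 116 CPM in controls. Every Nop16 siRNA library was higher. Hmox1 rose 1.4-fold (95% interval 1.33 to 1.48; log2 fold change 0.49, SE 0.0396, edgeR adjusted p = 3.76e-16). Ireb2 encodes iron regulatory protein 2, which binds the hairpins shown above when iron is scarce and is itself degraded when iron is plentiful. It stood at 62.9, 68.2 and 60.2 CPM after Nop16 siRNA and at 75.4, 76.3 and 73.8 CPM in controls, without overlap. Ireb2 RNA fell to 84.8% of control (95% interval 79.1 to 90.9%; log2 fold change -0.24, edgeR adjusted p = 6.26e-05).

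**Figure D3:**
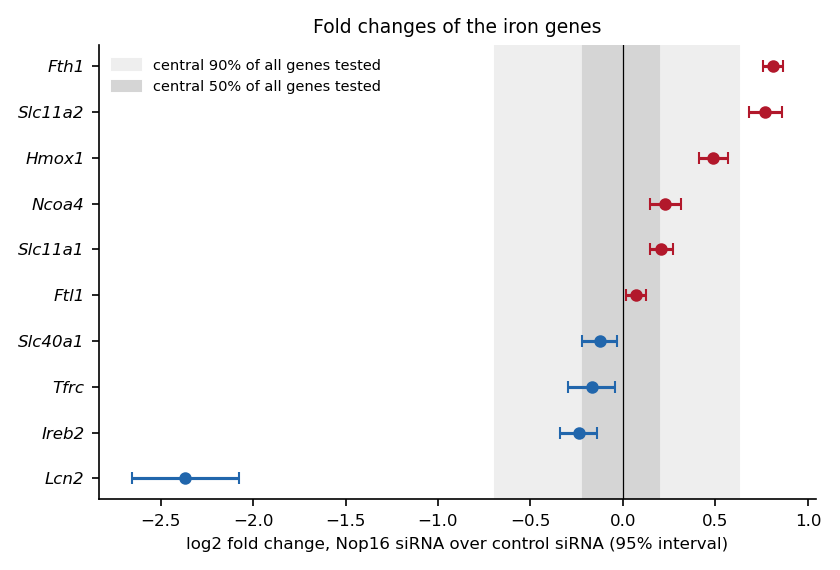
Log2 fold change of each iron gene, Nop16 siRNA over control siRNA, with its 95% interval. The light and dark bands hold the central 90% (-0.69 to 0.63) and 50% (-0.22 to 0.20) of all genes tested, and only Lcn2, Fth1 and Slc11a2 lie outside the light band.

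The 4 genes with a match did not share a direction. Fth1 kept its call in every alternative, while Ftl1, Slc40a1 and Tfrc lost theirs when some single libraries were left out. Of those with a match in the 5′ UTR, Fth1 and Ftl1 had log2 fold changes of 0.81 and 0.07 and Slc40a1 one of -0.13, and Tfrc, with 4 matches in the 3′ UTR, had -0.17. Slc11a2, whose known 3′ UTR element the search does not cover, had 0.77. The intervals of the Fth1 and Ftl1 fold changes do not meet. The loops of Fth1 and Ftl1 read CAGTGC and CAGTGT, and Slc40a1 has the loop of Ftl1. Any link of the loop to RNA level was not tested. Over all genes tested with a match, Fth1, Ftl1, Slc40a1 and Tfrc included, 7 of 16 with one in a 5′ UTR were higher and 3 lower. Of 69 with one in a 3′ UTR, 21 were higher and 17 lower. The shares over all genes tested were 23% higher and 22.4% lower, and neither count was tested against them.

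Per kilobase of counted gene length (FPKM computed from the counts), Ftl1 was the most abundant of the 10 in both groups, at 4319.8 ± 138 FPKM after Nop16 siRNA and 4114 ± 89.2 FPKM in controls (SD, n = 3 each). Fth1 followed at 602 ± 8.71 FPKM after Nop16 siRNA and 343 ± 13.5 FPKM in controls. Slc11a1 was next, at 98 ± 1.52 FPKM after Nop16 siRNA and 84.8 ± 1.68 FPKM in controls, ahead of Hmox1, at 92.1 ± 4.16 FPKM after Nop16 siRNA and 65.6 ± 3.27 FPKM in controls. Next came Slc11a2, Ncoa4 and Slc40a1, all between 7.75 and 18.5 FPKM after Nop16 siRNA and between 8.19 and 10.7 FPKM in controls. Lcn2 was last in both groups, at 1.11 ± 0.181 FPKM after Nop16 siRNA and 5.72 ± 0.795 FPKM in controls. Neighbours in this order did not overlap, save Tfrc and Ireb2 in both groups and Slc40a1 and Tfrc after Nop16 siRNA. The counted length joins all annotated exons, retained introns included, so these levels are low estimates for genes such as Fth1, whose counted length is 3469 bases.

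A wider list of 104 genes of iron and haem handling, the 10 included, had 85 members tested, with 28 higher and 20 lower. Without the 10, 22 of 75 were higher and 16 lower, or 50.7% called, beside 45.4% of all genes tested. The median absolute log2 fold change of these 75 was 0.168, below the 0.206 of all genes tested.

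The counts by role that follow come from short lists and were not tested against the 23% of all genes called higher and the 22.4% called lower. Among 7 tested genes of storage and ferritin iron delivery, 4 were higher and 2 lower. Pcbp2, an iron chaperone that hands iron to ferritin, fell to 395 ± 8.6 CPM after Nop16 siRNA, against 545 ± 13 CPM in controls (SD, n = 3 each; log2 fold change -0.46, edgeR adjusted p = 9.84e-21). Pcbp3, a relative of Pcbp2, fell by 0.42 on the log2 scale and Herc2, a ubiquitin ligase of NCOA4, rose by 0.11, but neither passed in DESeq2 (adjusted p = 0.0524 and 0.0692). Pcbp3 was at -0.28 without Nop16 siRNA replicate 2 (edgeR adjusted p = 0.118) and at -0.34 without control replicate 3 (0.0706), and Herc2 lost its call without Nop16 siRNA replicate 3 (0.0953) or control replicate 1 (0.106) or 2 (0.104). Without Nop16 siRNA replicate 3 or control replicate 2, 2 storage genes were higher, and without Nop16 siRNA replicate 2 or control replicate 3, 1 was lower. Of 10 tested genes of iron uptake and endosomal or lysosomal transport, 7 were higher and 1, Tfrc, lower, beside 23% and 22.4% of all genes tested. Slc39a8, a zinc transporter that also carries iron, rose 1.28-fold (log2 fold change 0.35), Trf, transferrin, 1.2-fold (0.26), Mcoln1, a cation channel of the lysosome, 1.15-fold (0.20), and Steap3, a reductase of endosomal iron, 1.14-fold (0.19). No uptake gene was lower without Nop16 siRNA replicate 1 or 3 or control replicate 3.

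Of the genes of export and hepcidin control, 7 of 10 were too low to test, and Hamp, hepcidin itself, was at 0 in every library. Slc40a1 and Cp were lower, beside 22.4% of all genes tested. Cp, which encodes the ferroxidase ceruloplasmin and which was named after its values were seen, had 6, 7 and 16 counts after Nop16 siRNA, against 39, 36 and 38 in controls. These are low counts, and Nop16 siRNA replicate 3 lay apart from the other 2. Cp changed by -1.62 on the log2 scale (SE 0.365; adjusted p = 0.000185 in edgeR), a value that ran from -2.12 to -1.43 as libraries were left out. Without Nop16 siRNA replicate 1, control replicate 2 or control replicate 3, 1 export gene was lower.

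Iron sensing genes had 1 of 6 higher and 2 lower, beside 23% and 22.4% of all genes tested. Aco1, which encodes iron regulatory protein 1, stood at 37 ± 0.524 CPM after Nop16 siRNA and 33.1 ± 2 CPM in controls (SD, n = 3 each; log2 fold change 0.16, edgeR adjusted p = 0.0481), and it lost its call in 11 of 16 alternatives. Cul1, a scaffold of the ligase that degrades iron regulatory protein 2, had a log2 fold change of -0.10 (edgeR adjusted p = 0.0237), lost in DESeq2 (adjusted p = 0.0655) and without Nop16 siRNA replicate 1 (edgeR adjusted p = 0.102), control replicate 1 (0.0723) or control replicate 3 (0.0634). Among the fits with 1 library left out, a sensing gene was higher only without control replicate 1. Without that library, Nop16 siRNA replicate 1 or control replicate 3, 1 was lower. Fbxl5, the iron-sensing subunit of that ligase, stood at 54.1 ± 1.56 CPM after Nop16 siRNA and 53.7 ± 2.82 CPM in controls and did not pass.

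Haem genes were counted apart for breakdown and synthesis. Of 10 tested genes of haem breakdown and transport, 5 were higher and 2 lower, beside 23% and 22.4% of all genes tested, a count that held with any 1 library left out. Blvra, biliverdin reductase, which acts on the product of haem oxygenase, rose to 127 ± 2.39 CPM after Nop16 siRNA, against 83.1 ± 3.56 CPM in controls (SD, n = 3 each; log2 fold change 0.61, edgeR adjusted p = 2.04e-19). Abcg2, a transporter that exports porphyrins, rose 1.19-fold. Slc48a1, which moves haem out of the phagolysosome, fell by 0.38 on the log2 scale, and Hmox2, the constitutive haem oxygenase, by 0.30, the opposite direction to Hmox1. Of 8 tested genes of haem synthesis, none was higher and 3 were lower, or 37.5% called, beside 45.4% of all genes tested. In DESeq2, 2 were lower, as also without Nop16 siRNA replicate 2 or 3 or control replicate 2 or 3. Fech, which puts iron into the haem ring, fell by 0.25 and Ppox by 0.14 on the log2 scale. The Ppox value was -0.10 without Nop16 siRNA replicate 2 (edgeR adjusted p = 0.22) and -0.09 without control replicate 2 (edgeR adjusted p = 0.281).

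Mitochondrial iron import and iron-sulphur cluster genes had 5 of 21 lower and 2 higher, or 33.3% called, beside 45.4% of all genes tested. Isca1, an assembly factor, fell to 16.6 ± 0.65 CPM after Nop16 siRNA, against 21.7 ± 1.79 CPM in controls (SD, n = 3 each; log2 fold change -0.39, edgeR adjusted p = 0.000172), and the mitoferrin genes Slc25a28 and Slc25a37, which import iron, fell by 0.33 and 0.29 on the log2 scale. Without Nop16 siRNA replicate 1 or 3, or control replicate 2 or 3, 1 gene of this list was higher. Cytosolic iron-sulphur cluster genes had 4 of 11 higher and 2 lower, beside 23% and 22.4% of all genes tested. The scaffold genes went opposite ways, with Nubp2 at 0.23 and Nubp1 at -0.22 (log2 fold change). Ciao1 and Fam96a, of the complex that places clusters on target proteins, had 0.19 and 0.18. Nubp1 lost its call without control replicate 3 (edgeR adjusted p = 0.0678), and Ciao1 without Nop16 siRNA replicate 3 (0.0645) or control replicate 2 (0.0503). Without control replicate 2, 2 of this list were higher and 1 lower; without Nop16 siRNA replicate 2 or 3, 1 was lower, and without control replicate 3, none.

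Of 7 tested transcription factors of iron and haem genes, 5 were higher and none lower, whichever library was left out, beside 23% higher and 22.4% lower over all genes tested. Nfe2l2, which encodes NRF2, a known activator of Hmox1 and ferritin genes, rose to 277 ± 4.82 CPM after Nop16 siRNA, against 208 ± 4.35 CPM in controls (SD, n = 3 each; log2 fold change 0.41, edgeR adjusted p = 5.37e-17). Mitf, Epas1 and the metal-responsive factor gene Mtf1 rose by 0.36, 0.35 and 0.34. Against a minimum fold of 1.2, Mitf and Mtf1 did not pass (edgeR adjusted p = 0.0859 and 0.234). Bach1, a haem-sensing repressor of Hmox1, stood at 75.2 ± 4.69 CPM after Nop16 siRNA and 72.4 ± 0.788 CPM in controls and did not pass. Spic, needed for red pulp macrophages, was at 0 in every library.

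**Figure D4:**
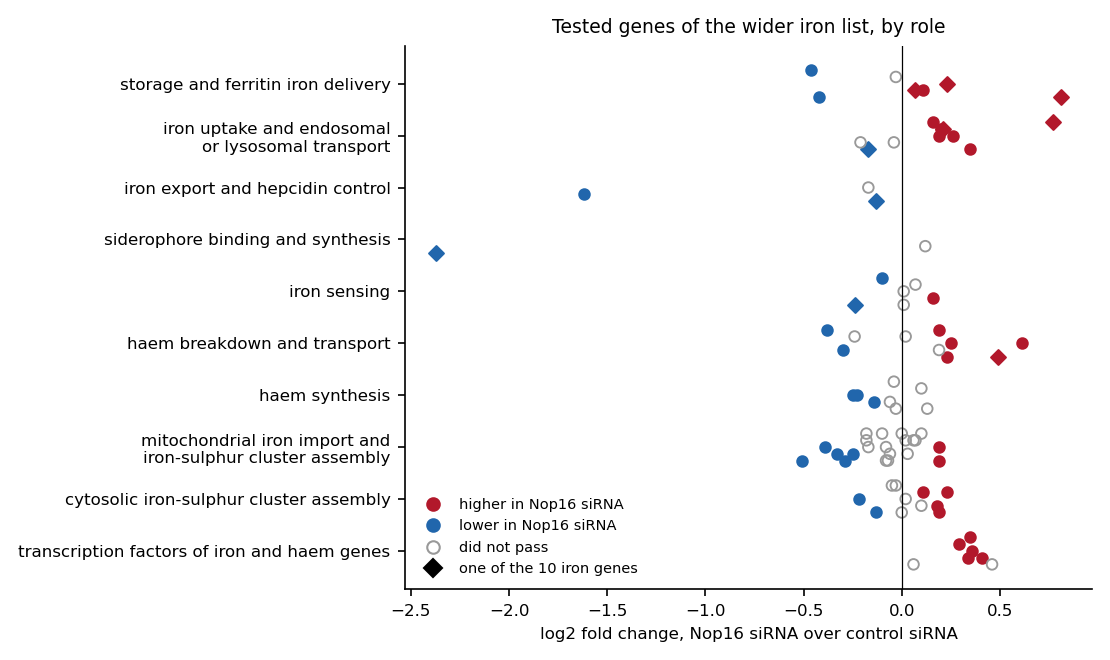
Log2 fold change, Nop16 siRNA over control siRNA, of the 85 tested genes of the wider iron list, 1 point a gene, in rows by role. Filled red and blue points passed as higher and lower, open points did not pass, and diamonds are the 10 iron genes; the 5 called transcription factors lie to the right of 0 and the 3 called haem synthesis genes to the left, beside 23% of all genes tested called higher and 22.4% called lower.

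The genes most like Fth1 and Lcn2 in level across libraries were sought among 9935 other protein-coding genes, all averaging 5 CPM or more, by the mean absolute difference of log2 CPM over the 6 libraries after centring each gene. Nearest to Fth1 were Gpnmb (0.0206), Tnfsf9 (0.0219) and Ets2 (0.023), which had log2 fold changes of 0.82, 0.86 and 0.77. Nearest to Lcn2 were Nop16 itself (0.194), Dbp (0.215) and Ppib (0.324), with log2 fold changes of -2.16, -2.15 and -1.54. With 2 groups the measure follows mostly the difference between them.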

How the data were processed

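The authors deposited unnormalized fragment counts for each gene of 3 Nop16 siRNA and 3 control siRNA libraries. These were made with featureCounts 2.0.1 on Ensembl release 101 gene models of GRCm38, per the file headers, with strand setting 2, a minimum overlap of 10 bases, and with multi-mapping and multi-overlapping fragments both counted. The submitters' processing notes also list Trim Galore and HISAT2 2.2.1. Totals are thus not numbers of distinct fragments, and genes with near-identical copies are uncertain. Symbols were matched for 55141 of 55401 identifiers.

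Groups were compared by edgeR 4.0.16 (quasi-likelihood, in R 4.3.3) with robust dispersion, TMM scaling, the filterByExpr filter and Benjamini-Hochberg adjustment over all 14269 genes tested, at a threshold of 0.05. A positive log2 fold change means higher after Nop16 siRNA, and its SE was obtained by dividing it by the root of the F statistic. CPM use TMM-scaled totals of the tested genes. Alternatives were RLE scaling, library size only, DESeq2 1.42.0, limma-voom 3.58.1, no filter, 5 CPM in 3 libraries, robust off, a replicate block, a minimum fold of 1.2 and each library left out. Thinning to equal depth was added after the data were seen. Overlaps came from bedtools 2.31.1. Intervals on fold changes come from the edgeR fit and include the spread between these libraries. The floor of 3 counts is a set value, and there are no molecular identifiers.

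The 10 genes and the wider list were chosen with earlier results of these data known. Named beside them are, per role list, up to 4 called genes with the largest absolute change at a mean of at least 5 CPM, and, outside that rule and after values were seen, Cp and some genes that did not pass or were too low to test. For Fth1 and Lcn2, the 3 protein-coding genes with the most similar profile are named. Pairs of libraries within a group gave a chi-square of 2.51 to 3.14 for each degree of freedom, so no pair agreed within sampling noise. Some genes that the naming rule covers are not reported here.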

Additional observations from a re-analysis of the deposited data

How the results depend on the processing

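No iron gene changed direction in any of 16 alternatives. Lcn2, Fth1, Slc11a2 and Hmox1 kept their calls in all 16. Ncoa4, Slc11a1 and Ireb2 lost theirs only against a minimum fold of 1.2. Adjusted p over the alternatives ran from 0.00214 to 1 for Ftl1, from 0.000565 to 1 for Tfrc and from 0.00811 to 1 for Slc40a1, the highest always against that minimum fold. Against it, 2361 of all genes, 4 of the 10 iron genes and 11 of the wider list passed, in place of 6482, 10 and 48. With 1 library left out, 5839 to 6049 of all genes, 7 to 10 iron genes and 38 to 45 of the wider list passed. DESeq2 called 8 of the 10 iron genes and 5331 of all genes. Scaling by library size only called 9 iron genes and 6419 of all genes. Thinning to equal depth called 10 iron genes and 6291 of all genes. Of 28 wider-list genes that the naming rule covers, 8 lost a call in some alternative other than the minimum fold.

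Same-numbered libraries did not deviate together (correlations of 0.017, -0.02 and -0.022), so the numbers were not taken as pairs. A replicate block called 6429 genes, all 10 iron genes and 47 of the wider list. The causes of lost calls were not tested.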
